A study of Danio rerio with 4 samples.

Results

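The embryonic and larval globin genes of zebrafish were examined in RNA of larval livers. They were taken as the rows whose symbol begins with hb, followed by a or b for the chain and by a or e for the adult or embryonic name. This gave 4 genes of the 11021 in the table: the alpha globin genes hbae3 and hbae1, and the beta globin genes hbbe1.1 and hbbe2. All 4 carry embryonic names and 0 carry an adult name. The label therefore holds for these members by name. RefSeq lists 15 zebrafish genes with such symbols. Of these, 4 are the members, 2 were found under other names and are described beside them, and 9 were not analysed here.

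Each library was made from polyadenylated RNA of livers at 5 days post fertilisation (dpf). One group has the genotype Tg(fabp10:has.UHRF1-GFP), in which a hepatocyte promoter drives human UHRF1 fused to GFP. UHRF1 is a chromatin protein that guides maintenance DNA methylation. The control group, Tg(fabp10:nls-mCherry), has a nuclear red fluorescent protein under the same promoter and was not analysed here, so no value below is an effect of UHRF1. The transgene is driven in hepatocytes, whereas globin is made by red blood cells. Of the 4 libraries that the labels name, the 2 of the UHRF1-high group, A and B, were analysed. Whether they come from separate clutches is not stated. The series text mentions 2 batches of fish but ties no library to either, and it calls the RNA small, whereas the sample labels give polyadenylated RNA. Their difference is spread within 1 group, which may be partly technical, and it gives no test. Values are quantile-normalised, which places every library on the same set of values, so that a value mostly reports a gene's rank. At the bottom, 694 genes shared the lowest value in A, 0.0203, and 449 genes were listed at 0 in B. Depth is unknown.

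Haemoglobin, the oxygen carrier of blood, is a tetramer of alpha and beta chains, each holding a heme group with iron. Zebrafish switch from embryonic to adult globin genes during development, as other vertebrates do, and their red blood cells keep their nuclei. The alpha and beta genes lie side by side in clusters, a major cluster on chromosome 3 and a minor cluster on chromosome 12. Hepatocytes do not make haemoglobin, and a dissected liver holds blood in its sinusoids. In bulk RNA of this kind, fewer red blood cells and less globin RNA per cell cannot be told apart.

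The tissue label was set beside a list of 10 hepatocyte genes, all measured. This list and the other marker lists were chosen with earlier results of these data known, so they are not an independent check. Both apolipoprotein genes, apoa1b and apoa2, and fabp10a, which encodes a fatty acid binding protein, held ranks 1, 2 and 3 in both libraries, where quantile normalisation makes their values identical. Of the 10 genes, 4 were at least 2-fold higher in A and 0 in B: tfa, transferrin (12758 in A, 2207 in B), serpina1 (4796 and 1567), rbp4 (1673 and 342) and gc (610 and 84.9). Markers of other tissues differed as well. Skeletal muscle markers were higher in B in 10 of 10 genes, with a summed value of 241 in A and 2913 in B. Exocrine pancreas markers were higher in A in 9 of 9 genes, with sums of 9300 and 1007. Skin markers above the filter, a mean of at least 1, were higher in B in 9 of 9 genes, and leukocyte markers in 7 of 7. Over all 8386 genes above that filter, 51.0% were higher in B. At least 2-fold higher were 6.83% in B and 7.07% in A.

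The gene hbae3 encodes an embryonic alpha chain and had the highest mean of the members. It lies on chromosome 3 from 55998267 to 55999427 (Zv9). Library A gave it a value of 663 and library B 1035, for a mean of 849 ± 263 (SD, n = 2). It ranked 196th among all genes in A and 147th in B. B was thus the higher library, by a ratio of 1.56.

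The gene hbbe1.1 encodes an embryonic beta chain and lies on the same chromosome from 55966017 to 55966493. It stood at 614 in A against 1048 in B, averaging 831 ± 307 (SD, n = 2). Its ranks were 205 and 146. The order of hbae3 and hbbe1.1 turned between the libraries, with hbae3 higher in A and hbbe1.1 higher in B, and the gap between their means was far smaller than either SD. Whether the authors divided values by transcript length is not stated, so an order of levels between different genes can include their length.

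The member of the minor cluster, hbbe2, is a beta globin gene on chromosome 12 from 21702360 to 21703073. Values of 119 (A) and 208 (B) averaged 163 ± 63.1 (SD, n = 2), at ranks 668 and 438. It had the largest ratio of B to A among the members, 1.75.

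The alpha globin gene hbae1, on chromosome 3 from 55972019 to 55972732, was the lowest member. It reached 24.3 in A against 35.6 in B and averaged 29.9 ± 7.97 (SD, n = 2), at ranks 2099 and 1587. RefSeq gives it as an older symbol of hbae1.1, which the cluster holds beside hbae1.2 and hbae1.3. How the authors' counting divided reads between such close relatives is not given in the sources used here, so the level of hbae1 is uncertain. The same holds for hbbe1.1. Even so, all 4 members lay above the median of all genes, which was 4.36 in A and 4.41 in B.

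**Figure D1:**
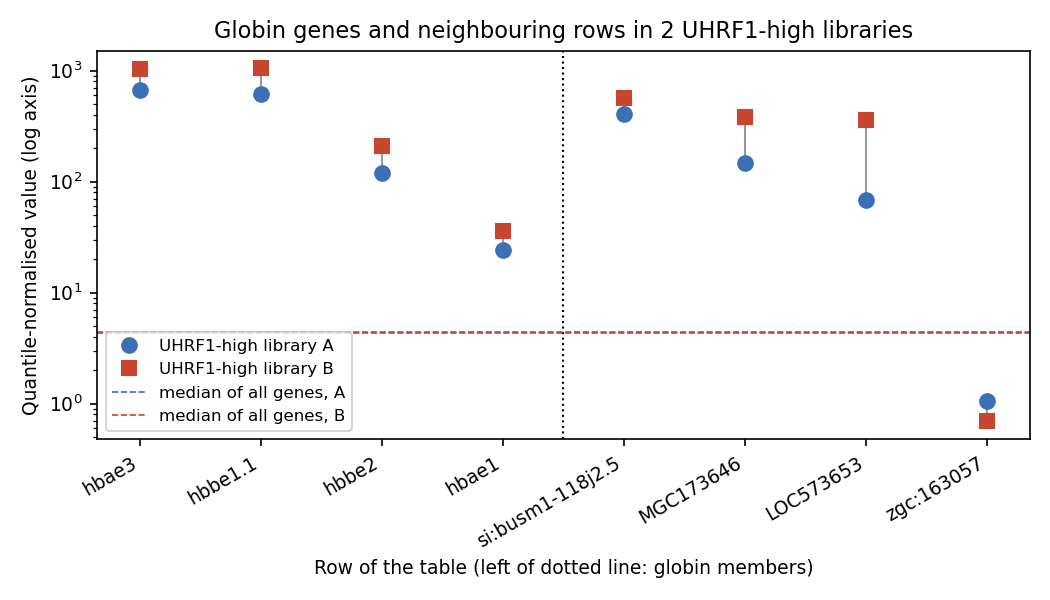
Quantile-normalised value (log axis) of the 4 globin members and of 4 other rows at the globin clusters, with a circle for library A and a square for library B. Dashed lines mark the median of all genes in each library and lie almost on each other at 4.36 and 4.41. Each member is higher in B, from 24.3 and 35.6 for hbae1 to 663 and 1035 for hbae3.

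All 4 members averaged at least 1, the filter used for differences between libraries, and 4 of 4 were higher in B. Across the 8386 genes above that filter, 51.0% were higher in B. Differences were taken as A minus B after a log2(value + 1) transform, on which changes of low genes come out too small. They were -0.64 for hbae3, -0.77 for hbbe1.1, -0.80 for hbbe2 and -0.53 for hbae1, with a median of -0.71 against -0.02 over all genes above the filter. None of the members, 0 of 4, was at least 2-fold apart between the libraries, where 6.83% of all genes were at least 2-fold higher in B and 7.07% at least 2-fold higher in A.

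Genes of high level gave a closer background. Of the 753 genes that averaged 100 or more, 56.4% were higher in B and the median difference was -0.08. In that set 102 genes, hbae3 included, lay as far towards B as hbae3, which is 13.5%. For hbbe1.1 the share was 10.4% and for hbbe2 it was 9.03%. These 3 members thus sat on the B side of the highly expressed genes, without standing at its end. The fourth, hbae1, averages less than 100 and is not in that set.

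**Figure D2:**
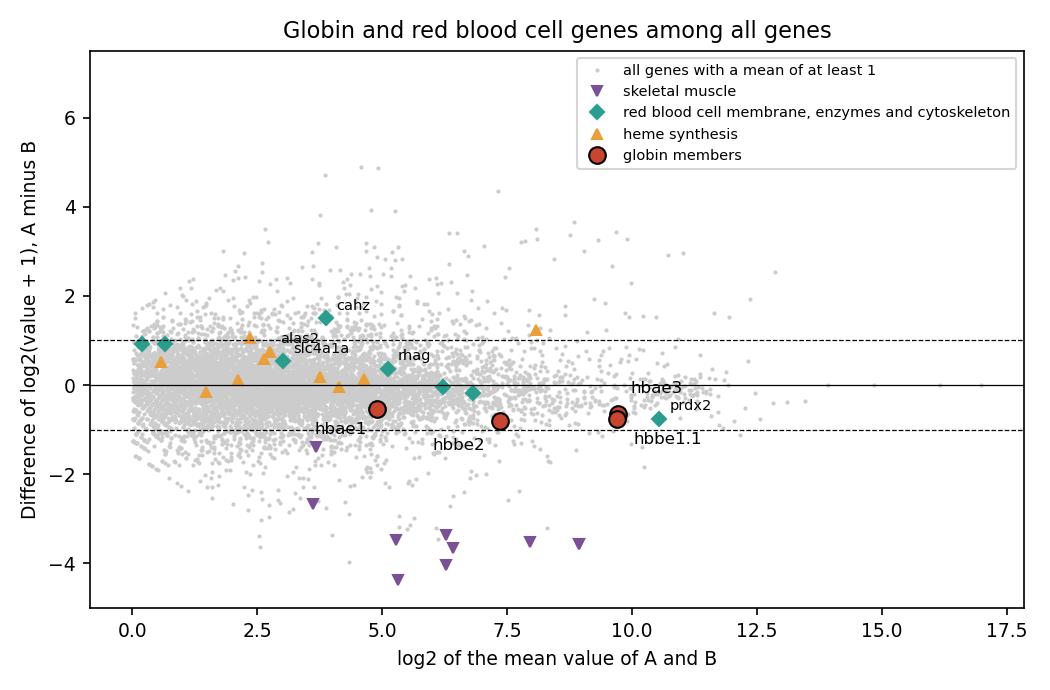
Difference of log2(value + 1), A minus B, against the log2 mean value of each gene, with all 8386 genes above the filter in grey, the globin members as large circles and 3 gene lists in colour. Dashed lines mark a 2-fold difference. The globin members lie between -0.53 and -0.80, inside the dashed lines, while all 10 skeletal muscle genes lie below them.

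The proportions among the members changed little between the libraries, and gene length does not enter this comparison. The value of hbbe1.1 was 92.6% of that of hbae3 in A and 101% in B. The value of hbbe2 was 19.3% of that of hbbe1.1 in A and 19.8% in B, although these beta genes lie on different chromosomes. The value of hbae1 was 3.66% of that of hbae3 in A and 3.44% in B.

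Summed over the 4 members, the globin value was 1420 in A against 2326 in B, averaging 1873 ± 640 (SD, n = 2). The ratio of B to A was 1.64. The sum was 0.165% of all values in A and 0.270% in B, shares that depend on the normalisation. The alpha genes summed to 688 in A and 1070 in B, and the beta genes to 733 and 1256. The alpha to beta ratio was 0.939 in A against 0.852 in B, averaging 0.895 ± 0.0611 (SD, n = 2). This ratio covers 2 alpha and 2 beta genes of the family and is not the balance of all chains. Its level includes any effect of gene length, as do the levels of the proportions above. Only the comparison of those proportions between A and B does not.

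On chromosome 3 the members hbbe1.1, hbae1 and hbae3 lie within 33.4 kb, in that order. Further rows of the table fall inside this stretch. The row si:busm1-118j2.5 spans 17999 bases, from 55965749 to 55983747, and covers hbbe1.1 and hbae1. It also covers the row MGC173646 and overlaps the row LOC573653, both described below. RefSeq gives that name as an older symbol of hbbe1.1. Its value was 409 in A and 565 in B, so it was also higher in B. Reads of the genes it covers or overlaps may have been counted in it as well, and it was not added to the globin sum.

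The row LOC573653, from 55982960 to 55983890, carries the RefSeq gene ID of hbbe1.3, an embryonic beta globin gene in the same cluster. Its value was 68.6 in A and 359 in B, a ratio of 5.23. It was 11.2% of the value of hbbe1.1 in A and 34.2% in B. Unlike the proportions among the members, this proportion was 3.06-fold higher in B. How the counting divided reads between LOC573653 and hbbe1.1 is not given, so the level of LOC573653 and this proportion are uncertain. The row MGC173646, from 55974574 to 55975110, lies between hbae1 and LOC573653 and was matched to no RefSeq name. It had 148 in A and 382 in B, or 24.1% and 36.4% of hbbe1.1. Both rows were more than 2-fold higher in B, which the members were not.

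**Figure D3:**
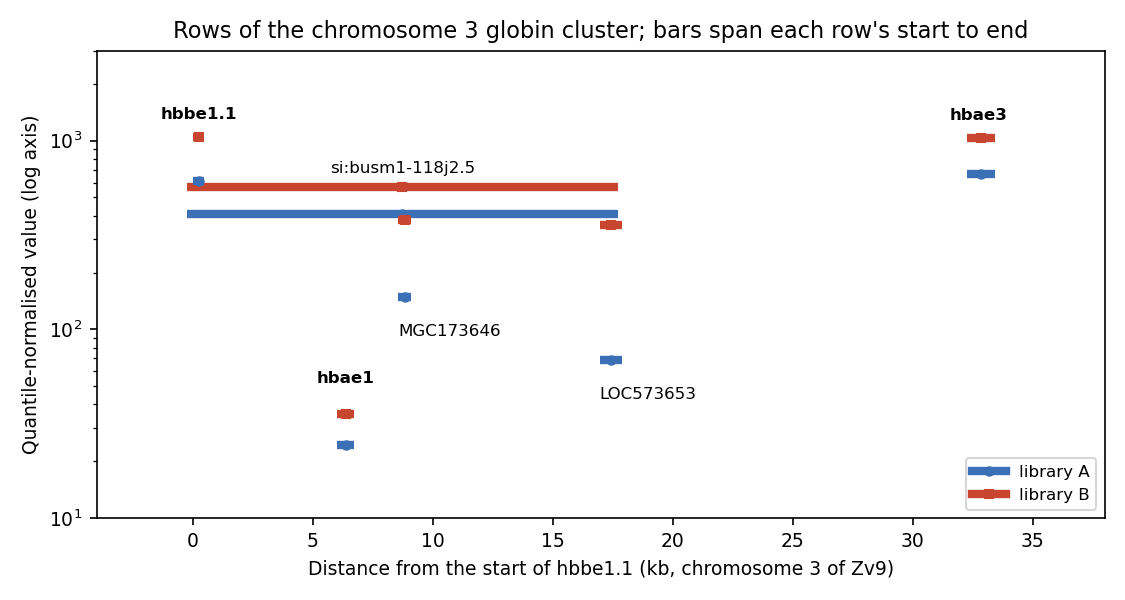
Rows of the globin cluster on chromosome 3 by distance from the start of hbbe1.1 (kb) and quantile-normalised value (log axis), with bars from start to end of each row for libraries A and B and with the members in bold type. The row si:busm1-118j2.5 overlaps 4 other rows, and the gap between A and B is widest at LOC573653, with 68.6 and 359.

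On chromosome 12 the row zgc:163057, from 21688636 to 21689779, is an older symbol of hbae4, an embryonic alpha globin gene. It lies 13.7 kb before hbbe2 but had values of 1.06 (A) and 0.691 (B), at percentiles 25.4 and 20.4 of the table. Of these 2 globin genes on chromosome 12, hbbe2 was thus the one at a high rank. With hbae4 and hbbe1.3 added, the alpha to beta ratio was 0.860 in A and 0.663 in B.

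Of the non-globin rows within 100 kb described here, 1 shared the high level. Upstream of the major cluster, nprl3, a regulator of nutrient signalling whose introns hold globin enhancers in mammals, had 2.996 in A and 3.445 in B. The DNA glycosylase gene mpg had 1.67 and 0.63. Beside the minor cluster, the methyltransferase gene lcmt1 had 8.18 and 8.61. The row at a high level was the aquaporin gene aqp8a.1, with 427 in A and 588 in B, a ratio of 1.38, while its neighbour aqp8a.2 had 3.69 and 4.41. One row with a span of 46453440 bases of chromosome 3, zgc:165627, also covers the whole cluster. It had 0.0203, the lowest value in A, and 0.365 in B.

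Other genes of red blood cells differed in both directions between the libraries. A list of red blood cell membrane, enzyme and cytoskeleton genes named 19 genes, of which 12 had a row and 8 passed the filter. Of these 8, 5 were higher in A and 3 in B, where 51.0% of all genes above the filter were higher in B. The median difference was 0.45 on the log2 scale, towards A, but it was -0.05, towards B, once only genes averaging 10 or more were kept. Without a filter, 7 of the 12 rows were higher in A and 5 in B. The 8 genes above the filter summed to 1362 in A and 2109 in B, most of it from prdx2. Of the 4 with the highest mean, prdx2, aqp1a.1 and blvrb are also made in other cells. The peroxidase gene prdx2 had 1108 in A and 1867 in B, a ratio of 1.69 near that of the globin genes. The water channel gene aqp1a.1 had 106 and 120, and blvrb, which reduces biliverdin, had 73.4 and 76.2. The Rh family ammonium transport gene rhag had 39.01 and 29.997.

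Several genes close to the red blood cell lineage were far below hbae3 in level and higher in A. Of these, 5 were picked after their values were seen: slc4a1a, cahz, epb41b, alas2 and gata1a. The membrane skeleton gene ank1, not among the 5, went the other way, with 0.0203, the lowest value in A, and 1.06 in B. The mean of ank1, 0.539, did not pass the filter. The anion exchanger gene slc4a1a, the main membrane protein of red blood cells, had 9.70 in A and 6.42 in B. The carbonic anhydrase gene cahz had 22.1 and 7.22. After the log2(value + 1) transform it was the only gene of its list above the filter at least 2-fold higher in A. The membrane skeleton gene epb41b had 2.36 and 0.772, more than 2-fold apart only on the plain values.

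The enzyme gene alas2, which starts heme synthesis in red blood cells, had 8.67 in A and 4.77 in B. The erythroid transcription factor gene gata1a had 1.55 and 0.203, a mean of 0.875 that did not pass the filter. Set against hbae3, the value of slc4a1a was 1.46% in A and 0.620% in B. For alas2 it was 1.31% and 0.461%, and for cahz 3.34% and 0.698%. The value of prdx2, which is not among the 5, was 167% of that of hbae3 in A and 180% in B. The 5 picked genes were higher in A and the globin genes higher in B, a contrast that the choice of the 5 fixes. Other genes of the same lists were higher in B as the globin genes were. Among them were lmo2 (1.55 in A, 3.30 in B), above the filter, and cmyb (0.304 and 1.12) and dmtn, both below it. The values of dmtn were 0.0203, the lowest value in A, and 0.183 in B. The part that hepatocyte, muscle, skin and pancreas RNA or the normalisation has in this was not tested.

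Heme synthesis genes were higher in A in 8 of 10, all above the filter, with a median difference of 0.34. Over all genes above the filter, 51.0% were higher in B. The median was 0.16 when only heme synthesis genes averaging 10 or more were kept. The gene with the highest mean was alas1, the form of the first enzyme that is made in most tissues, with 378 in A and 161 in B. It was followed by alad (26.0 and 23.5), cpox (17.4 and 17.9) and urod (14.3 and 12.5), later enzymes of the pathway that differed little. Another later enzyme gene, uros, had 7.22 in A and 2.98 in B. At least 2-fold higher in A were 2 genes of the list, alas1 and uros, and 0 were in B. Over all genes above the filter, 7.07% were at least 2-fold higher in A and 6.83% in B. The ferrochelatase gene fech, whose product puts iron into heme, had the lowest mean, with 1.93 and 1.06.

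Among genes that supply iron to red blood cells, 11 of 14 had a row and 9 passed the filter. Of these 9, 6 were higher in A and 3 in B, against 51.0% of all genes above the filter higher in B. The median difference of the 9 was 0.16. The iron supply gene with the highest mean was glrx5, needed for iron-sulfur clusters, with 114 in A and 194 in B. The iron transporter gene slc11a2 had 137 and 130, and tmem14c, a mitochondrial protein gene needed for heme synthesis, had 73.6 and 98.2. The transferrin receptor gene tfr2, which is also made in hepatocytes, had 34.7 and 9.63. The mitochondrial iron importer gene slc25a37 had a mean below the filter, at 0.651 in A and at a listed 0 in B. So had the transferrin receptor gene tfr1a, at 0.976 and 0.0609. These last 2 were picked after their values were seen. Another transferrin receptor gene, tfr1b, passed the filter with 4.47 and 1.84, as slc11a2 did.

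Genes on the list of erythroid regulators had values of at most 11.9 in either library, which was the value of hbs1l in A. Of 19 genes named, 16 had a row and 9 passed the filter. Of these 9, 4 were higher in A and 5 in B, against 51.0% of all genes above the filter higher in B. At least 2-fold higher in A were 2, stat5.1 (3.24 in A, 0.651 in B) and stat5.2 (2.445 and 0.609), and 0 were in B. Over all genes above the filter, 7.07% were at least 2-fold higher in A and 6.83% in B. The median difference of the regulators was 0.00 to 2 decimals. The median lay slightly towards A without a filter and with each library scaled to its median. Highest on the list were hbs1l, a ribosome rescue gene (11.9 in A and 10.3 in B), and the kinase gene jak2a (7.487 and 7.497). The transcription factor gene klf3 (5.57 and 9.24) and the LIM cofactor gene ldb1a (4.87 and 3.08) came next.

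Genes that handle free haemoglobin and heme had 7 of 10 with a row, all 7 above the filter. Of these 7, 4 were higher in A and 3 in B, where 51.0% of all genes above the filter were higher in B. The median difference of the 7 was 0.13. The heme oxygenase genes hmox1 (22.1 in A and 28.4 in B) and hmox2a (29.6 and 27.0) differed little, as did blvra, a biliverdin reductase gene, with 9.09 and 8.09. The heme scavenger gene hpx, hemopexin, was the member at least 4-fold apart, with 8.77 in A and 0.833 in B. Myoglobin, mb, the oxygen-binding globin of muscle, was far higher in B, with 2.32 in A and 18.1 in B, as were the skeletal muscle markers. The cytoglobin gene cygb1 had 2.88 and 4.36.

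Markers of other blood and vessel cells moved by different amounts. Leukocyte markers had 7 of 11 genes with a row, all above the filter, and 5 of them were at least 2-fold higher in B, with a median of -1.68. The leukocyte gene coro1a had 6.83 in A and 36.4 in B. Endothelial markers had 6 of 10 with a row, all 6 higher in B by a median of only -0.14, with 1 at least 2-fold. The endothelial gene cdh5 was nearly equal, with 1.669 in A and 1.670 in B. Over all genes above the filter, 51.0% were higher in B. At least 2-fold higher were 6.83% in B and 7.07% in A. Thrombocyte markers had 4 of 6 genes with a row and 1 above the filter, f2rl1.2 (2.996 in A, 1.53 in B). Among the others, itga2b, the platelet integrin gene, was at the lowest value of each library, 0.0203 in A and a listed 0 in B. The median of the globin members, -0.71, thus lay between those of the endothelial and the skin markers (-1.20). Exocrine pancreas markers had a median of 3.41 and muscle markers of -3.54. The hepatocyte median was 0.00, which rests on the 3 genes tied at the top ranks, and 4 of the 10 hepatocyte markers were at least 2-fold higher in A.

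**Figure D4:**
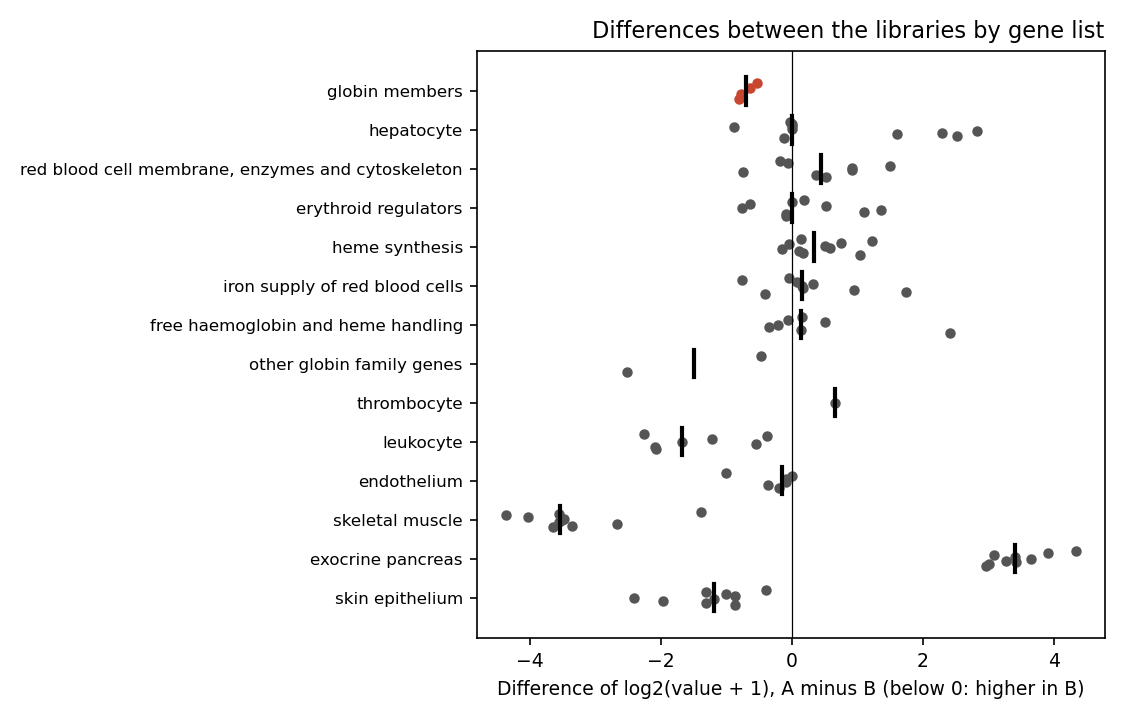
Difference of log2(value + 1), A minus B, for each gene above the filter in the globin family and 13 lists, with 1 point per gene and a vertical bar at each list's median. The globin members cluster near -0.71, the heme synthesis and red blood cell membrane lists have medians of 0.34 and 0.45, and the muscle and pancreas lists lie at the extremes.

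By mean value, the genes next above hbae3 were atp5c1, a subunit gene of ATP synthase (918 in both libraries), serpinf2b (1055 in A and 709 in B) and kng1, kininogen (1026 and 716). Next below were zgc:56493 (682 and 1002), hbbe1.1 and zgc:86599 (811 and 846). The gene with the second highest globin value was therefore 2 places from the highest. The 5 genes of at least 100 with a difference closest to that of hbae3, over 2 libraries only, were cox7a2a, rplp2, psma5, nudc and atp6v0ca, with differences from -0.62 to -0.65. They are genes of general cell functions. Of 752 genes compared, 25 lay within 0.05 of hbae3, so many genes are about as close.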

How the data were processed

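The authors deposited signal values per gene that are quantile-normalised, as the name of the table states; per the file headers there are columns for UHRF1-high A and B, and 0 other per-sample columns. Per the submitters' processing notes, CASAVA 1.7 and the Zv9 (danRer7) build were used. The counter, annotation, gene filter and unit before normalisation are not stated there. Depth is unknown, so no counting interval is given. Starts are printed counted from 1, because some are 0 in the table.

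Columns were matched to libraries by title. Levels are mean ± SD of 2 libraries; differences use log2(value + 1) over genes averaging at least 1. With 1 group there is no test. Computed with Python 3.11.15, pandas 2.3.3 and numpy 2.4.6, and tested on simulated data. Genes were matched to RefSeq (GRCz12tu) by symbol, unique older symbol or gene ID. The matching was used for names, neighbours and rows of list genes not found under the listed symbol. It was also used for the alpha to beta ratio with hbae4 and hbbe1.3 added. The members and 13 lists were chosen with earlier results of these data known. The naming rule (all members; the 4 highest of a list and those 4-fold apart) was applied in full to the red blood cell lists only.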

Additional observations from a re-analysis of the deposited data

How the results depend on the processing

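All 4 globin members kept their direction towards B with a pseudocount of 0.1 or 10, without a filter, with a filter at a mean of 10, with each library scaled to its median and as percentile ranks, and 0 of 4 became 2-fold apart. The summed globin value ranged from 1420 to 2326 and the alpha to beta ratio from 0.852 to 0.939 with A or B alone; with rows matched through RefSeq, an alternative chosen after seeing the data, the ratio was 0.761. With a pseudocount of 10, the 2-fold counts over all genes were 188 towards A and 134 towards B, against 593 and 573, and the medians were 0.19 for red blood cell membrane genes and 0.11 for heme synthesis. When only genes averaging 10 or more were kept, the counts were 320 and 238. The medians were then -0.054 for red blood cell membrane genes, a reversal, and 0.16 for heme synthesis. For erythroid regulators the median was 0.19, and it is that of hbs1l, the 1 gene left. The regulators' median of 0.00 (-0.0017) was 0.094 without a filter and 0.010 with median scaling; the cause was not tested. The adult-named share could not be given because 0 members have an adult name. No paired analysis was possible because 1 group was analysed.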
